A study of Mus musculus with 12 samples.

Results

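Pancreatic stellate cells (PSCs) isolated from a 3-way (3W) culture with tumour cells and macrophages were compared with PSCs grown alone. The comparison used 8 of the 12 libraries of the series, 4 from 3W-PSCs and 4 from mono-PSCs, and covered every gene that passed an expression filter on these 8 libraries, which were 11551 genes of 39179 in the table. All 12 libraries came from 1 SV40-immortalised mouse PSC line grown from a single clone, labelled with mCherry and given as C57BL/6, so the replicates were separate cultures of the same cells and not separate animals. Mono-PSCs were cultured alone. 3W-PSCs shared the flask with EGFP-labelled pancreatic cancer cells (PCCs), a mouse line with a transgene that doxycycline switches on, and with TagBFP-labelled RAW264.7 macrophages (MØs). 2W-PSCs shared it with the PCCs alone and serve here as context. Every culture ran for 72 h in the same medium at the same total cell number, so the number of PSCs per flask was not the same in the 3 designs. PSCs were then sorted as mCherry-positive cells without EGFP or TagBFP, and their RNA was counted from the 3′ end of each transcript.

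Stellate cells store vitamin A in the healthy pancreas and become matrix-producing fibroblasts in pancreatic cancer. Cancer-associated fibroblasts are often described in a contractile state, marked by smooth muscle actin and driven by TGF-β, and in an inflammatory state, marked by secreted cytokines and chemokines. IL-6 family cytokines such as oncostatin M act through Gp130 receptors, JAK kinases and STAT3. TNF, IL-1 and Toll-like receptor ligands act through NF-κB. Interferons act through STAT factors and the interferon regulatory factors (IRFs), which bind interferon-stimulated response elements (ISREs) in promoters. The comparison asks how PSC transcription differs once tumour cells and MØs are both present.

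Library totals were 5286963 to 8093368 counts in mono-PSCs and 7205488 to 8061367 in 3W-PSCs. Rank correlations over genes were 0.971 to 0.987 among 3W-PSC libraries, 0.946 to 0.971 among mono-PSC libraries and 0.893 to 0.947 between the cultures. The first principal component held 60.0% of the variance and put all 4 3W-PSC libraries on one side, and mono-PSC replicate 1 lay nearer to them than the other mono-PSC libraries did. Mitochondrially encoded genes took 3.10% to 6.71% of counts in mono-PSCs and 7.40% to 8.19% in 3W-PSCs. Summed over 18 stellate cell and fibroblast markers, levels were 12710 to 14400 CPM (counts scaled to the size of each library) in mono-PSCs and 8353 to 9774 CPM in 3W-PSCs, with Vim, the fibroblast filament protein, at 2039.8, 1383, 1520.0 and 1300.4 CPM in mono-PSCs and 1285, 1181, 1443 and 1340.1 CPM in 3W-PSCs. The stellate cell marker Gfap had 0 counts in every library.

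Between the cultures 3054 of 11551 genes (26.4%) differed at an adjusted p under 0.05 in the quasi-likelihood F-test of edgeR after Benjamini-Hochberg correction. These calls were near balance, with 1550 genes higher in 3W-PSCs (13.4%) and 1504 lower (13.0%). Both shares are the background for the counts of called genes in the lists below. Larger changes were less even, as 907 genes (7.85%) rose with a log2 fold change above 1 and 473 (4.09%) fell with one below -1. In 1583 genes (13.7%) every 3W-PSC library lay above every mono-PSC library, and in 1409 (12.2%) every one lay below. The median log2 fold change of all genes tested was 0.01. A gene is called higher or lower below only where it passed this test, values are CPM scaled by trimmed-mean (TMM) normalisation in replicate order 1 to 4, and fold changes are 3W-PSCs over mono-PSCs. For a single gene with no overlap between 4 and 4 libraries, the exact two-sided permutation p was 0.0286, the smallest this design allows. The strand setting of the counting is not stated, so reads of overlapping genes on opposite strands, such as Stat3 and Stat5a or Cxcl10 and Art3, cannot be told apart. These are bulk libraries, so a change in the share of PSCs in a given state and a change of RNA per cell cannot be told apart.

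The marker lists bear on the sort. Of 14 stellate cell and fibroblast markers tested 4 were called higher and 4 lower, and Vim was not called (-0.26 ± 0.17, adjusted p = 0.283). Transcripts listed as partner-cell markers were also counted. Over 30 macrophage markers the summed level was 14.3 to 19.0 CPM in mono-PSCs and 57.6 to 121.2 CPM in 3W-PSCs, against 16.2 to 26.8 CPM in 2W-PSCs, which had no MØs. It was highest in 3W-PSC replicate 4. The macrophage markers at 0 in every library were 19 of 30 in mono-PSCs and 4 of 30 in 3W-PSCs, and those 4 were Osm, Il1b, Emr1 and Lyz1. Of 8 that could be tested 5 were called higher, with Csf1r, the receptor for the macrophage growth factor Csf1, at 2.31 ± 0.552 CPM in 3W-PSCs (mean ± SD, n = 4, as for every such pair here) and Mpeg1, a phagocyte pore protein, at 6.98 ± 2.5 CPM. The number called higher depended on the filter and test. It was 14 with no filter, 10 with the DESeq2 test, 8 without 3W-PSC replicate 2 and 1 with at least 10 counts in every library. The 2W-PSC libraries read 0.141, 6.87, 1.27 and 1.12 CPM for Csf1r, a similar mean with a wide spread, and 0.282, 0, 0.318 and 1.28 CPM for Mpeg1. Over 30 epithelial and tumour cell markers the sum was 82.9 to 137.1 CPM in mono-PSCs and 197 to 227 CPM in 3W-PSCs, with 177 to 297 CPM in 2W-PSCs, and 9 of 10 tested were called higher. The keratin gene Krt18 read 0, 0.196, 0.178 and 0 CPM in mono-PSCs against 27.2, 20.1, 15.3 and 30.1 CPM in 3W-PSCs, and the E-cadherin gene Cdh1 0.583 ± 0.412 against 12 ± 5.51 CPM. Further epithelial genes called higher were Krt7 (10.9 CPM in 3W-PSCs), Krt19 (13.7 CPM), Krt8 (6.3 CPM) and the tetraspanin Tspan8 (4.41 CPM). Lyz2, a lysozyme of macrophages, was not called (1.14 ± 0.81, adjusted p = 0.32), and the mannose receptor Mrc1, with 0 mono-PSC counts, was at least 26.4-fold higher and read 1.13, 0, 1.59 and 2.89 CPM in the 2W-PSC libraries. The part of partner-cell RNA in the results that follow was not tested.

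**Figure D1:**
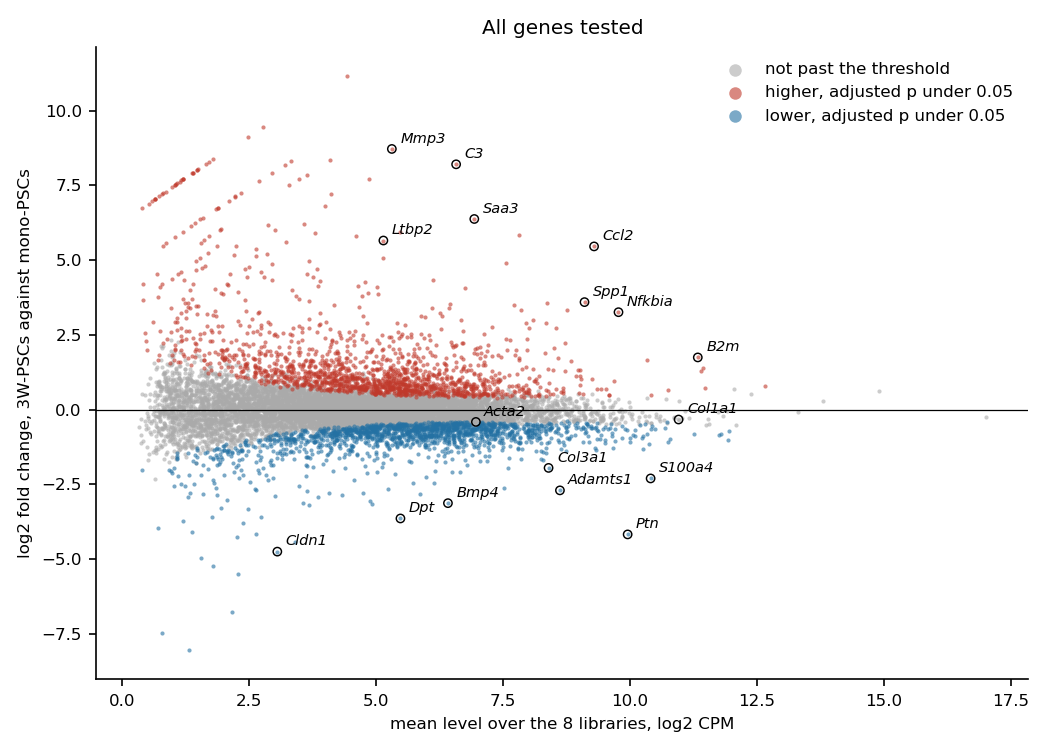
Log2 fold change of 3W-PSCs against mono-PSCs (vertical axis) against mean log2 CPM over the 8 libraries (horizontal axis), 1 point per gene tested, coloured by call. The 1550 higher and 1504 lower genes spread over the whole range of levels, with C3 and Ccl2 among the highest and Ptn, Bmp4 and S100a4 among the lowest of the abundant genes.

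Promoter sequences are shown for 6 genes that stand for main groups of raised genes, namely a chemokine, an acute-phase protein, a complement protein, an interferon-inducible GTPase, an immunoproteasome subunit and a matrix protease, and for Acta2, the contractile marker, which was not called. Each window runs from 250 bases before to 50 bases after the RefSeq start on GRCm38.p6, 5′ to 3′ on the gene's own strand. Capitals mark letters of an ISRE core (GAAANNGAA), an interferon-γ activated site or GAS (TTCNNNGAA), a κB site (GGANNTTCC), a C/EBP site (TTGCNNAA) or an AP-1 site (TGANTCA) on either strand. The κB and GAS letters can share the run TTC.
Cxcl10 (chr5:92348840-92349139, minus strand): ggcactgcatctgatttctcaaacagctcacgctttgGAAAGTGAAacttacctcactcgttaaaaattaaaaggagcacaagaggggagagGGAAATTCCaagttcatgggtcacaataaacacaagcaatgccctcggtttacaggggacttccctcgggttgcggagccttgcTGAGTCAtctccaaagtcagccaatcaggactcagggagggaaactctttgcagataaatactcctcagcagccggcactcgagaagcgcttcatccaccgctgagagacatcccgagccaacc
Saa3 (chr7:46715627-46715926, minus strand): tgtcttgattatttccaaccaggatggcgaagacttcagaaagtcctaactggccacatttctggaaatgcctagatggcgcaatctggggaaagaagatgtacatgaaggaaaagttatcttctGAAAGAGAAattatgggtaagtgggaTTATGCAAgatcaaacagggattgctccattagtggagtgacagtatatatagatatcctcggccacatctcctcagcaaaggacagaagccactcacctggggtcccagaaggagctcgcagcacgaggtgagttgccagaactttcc
C3 (chr17:57228087-57228386, minus strand): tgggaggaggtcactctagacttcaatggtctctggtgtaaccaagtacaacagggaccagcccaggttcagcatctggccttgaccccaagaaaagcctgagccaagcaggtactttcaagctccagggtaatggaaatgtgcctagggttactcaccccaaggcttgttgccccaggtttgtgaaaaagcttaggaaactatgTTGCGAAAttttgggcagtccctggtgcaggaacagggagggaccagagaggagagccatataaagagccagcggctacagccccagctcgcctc
Gbp2 (chr3:142620413-142620712, plus strand): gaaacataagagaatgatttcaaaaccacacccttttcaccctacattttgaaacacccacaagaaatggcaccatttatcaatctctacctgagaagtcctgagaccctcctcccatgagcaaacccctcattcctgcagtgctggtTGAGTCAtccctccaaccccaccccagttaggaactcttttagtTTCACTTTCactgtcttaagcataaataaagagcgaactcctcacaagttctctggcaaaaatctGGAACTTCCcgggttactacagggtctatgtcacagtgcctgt
Psmb9 (chr17:34187281-34187580, minus strand): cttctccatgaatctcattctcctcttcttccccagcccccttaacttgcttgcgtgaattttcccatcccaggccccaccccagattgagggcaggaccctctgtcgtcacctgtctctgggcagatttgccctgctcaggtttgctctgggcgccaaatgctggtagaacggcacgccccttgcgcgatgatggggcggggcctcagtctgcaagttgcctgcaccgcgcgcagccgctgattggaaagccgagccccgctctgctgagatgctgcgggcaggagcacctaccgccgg
Mmp3 (chr9:7445572-7445871, plus strand): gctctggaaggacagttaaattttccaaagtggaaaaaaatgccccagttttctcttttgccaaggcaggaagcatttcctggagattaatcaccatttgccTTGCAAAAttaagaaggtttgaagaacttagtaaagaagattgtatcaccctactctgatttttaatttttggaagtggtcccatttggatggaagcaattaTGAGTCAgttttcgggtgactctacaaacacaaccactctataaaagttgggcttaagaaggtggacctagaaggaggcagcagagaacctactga
Acta2 (chr19:34255324-34255623, minus strand): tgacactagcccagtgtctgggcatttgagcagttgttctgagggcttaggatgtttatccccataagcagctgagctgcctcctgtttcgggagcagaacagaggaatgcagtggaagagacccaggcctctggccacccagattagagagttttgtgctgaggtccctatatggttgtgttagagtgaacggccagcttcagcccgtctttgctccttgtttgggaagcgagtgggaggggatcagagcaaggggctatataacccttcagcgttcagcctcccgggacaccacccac
The Cxcl10 window held an ISRE core (GAAAGTGAA), a κB site (GGAAATTCC) and an AP-1 site (TGAGTCA). The Saa3 window held an ISRE core (GAAAGAGAA) and a C/EBP site, and the C3 window a single C/EBP site (TTGCGAAA). The Gbp2 window held an ISRE core read on the other strand (TTCACTTTC), a κB site and an AP-1 site, and the Mmp3 window a C/EBP site (TTGCAAAA) and an AP-1 site. The Psmb9 and Acta2 windows held 0 matches to these letters. Over all 32851 windows of 27025 genes an ISRE core was present in 8.56%, a GAS in 8.3%, a κB site in 4.26%, a C/EBP site in 10.8% and an AP-1 site in 7.81%. In the 10872 windows of genes tested these shares were 7.1%, 6.69%, 4.46%, 7.97% and 5.06% in the same order. In the 1500 windows of genes called higher they were 10.5%, 7.6%, 5.93%, 10.1% and 8.0%. In the 1421 windows of genes called lower they were 6.9%, 6.97%, 3.73%, 8.16% and 6.83%. A match is a description of letters and not a binding site. Motif shares given below for a gene list take all its members with a window, tested or not.

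The receptors of inflammatory cytokines rose as a group. Of 25 receptor genes tested in a list of 27, 18 were called higher and 1 lower, with a median log2 fold change of 1.12. Osmr (chromosome 15, 6813577 to 6874969, minus strand), the oncostatin M receptor subunit, read 6.14, 2.35, 4.44 and 3.39 CPM in mono-PSCs and 65.9, 78.7, 46.3 and 47.8 CPM in 3W-PSCs. All 4 3W-PSC libraries lay far above the mono-PSC range, a log2 fold change of 3.86 ± 0.28 (± SE throughout, adjusted p = 2.1e-08). Its ligand gene Osm had 0 counts in every library of both cultures, so the receptor was measured in these cells and the ligand was not.

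Il1rl1 (chromosome 1, 40429570 to 40465415, plus strand), which encodes the IL-33 receptor ST2, read 4.21, 4.31, 3.73 and 1.81 CPM in mono-PSCs and 59.8, 81, 54.3 and 41.1 CPM in 3W-PSCs. Its log2 fold change was 4.10 ± 0.29 (adjusted p = 1.69e-08), with no overlap. The IL-4 receptor chain Il4ra rose from 9.51 ± 4.9 to 72.8 ± 21.1 CPM, and its partner for IL-13, Il13ra1, from 7.72 ± 2.79 to 43.7 ± 8.85 CPM. Toll-like receptors rose too, with Tlr2, a sensor of bacterial lipoproteins, at log2 fold change 2.60 ± 0.28 and Tlr3, a sensor of double-stranded RNA, at 1.87 ± 0.20. The shared Gp130 subunit Il6st and the LIF receptor Lifr, outside the naming rule and chosen after their values were seen, rose less, by 0.64 ± 0.17 (adjusted p = 0.0101) and 1.72 ± 0.52 (adjusted p = 0.0215). The receptor called lower was Il11ra1, the IL-11 receptor chain, at -1.24 ± 0.19. Part of its 3′ end (36.9% of 75-base windows) also occurs in Il11ra2 and Gm13305, so its value is uncertain.

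Downstream of these receptors, 8 of 19 JAK-STAT genes tested rose and none fell, with a median of 0.30. Stat3, the transcription factor of the IL-6 family, read 79, 68.9, 58.9 and 66.4 CPM in mono-PSCs and 248, 287, 186 and 227 CPM in 3W-PSCs, which gave a log2 fold change of 1.79 ± 0.17 (adjusted p = 4.63e-07). Jak2, the kinase bound to Gp130-type receptors, read 30.2, 28.4, 17 and 26.5 CPM against 93, 119, 57.5 and 67.8 CPM, a log2 fold change of 1.72 ± 0.23 (adjusted p = 3.24e-05). Neither gene overlapped between the cultures. The feedback inhibitor Socs3 read 34.2, 8.03, 16.5 and 14.2 CPM in mono-PSCs and 64.8, 79.8, 68.2 and 58.8 CPM in 3W-PSCs (1.89 ± 0.30), and Socs1 rose by 2.11 ± 0.48. Not every kinase moved, since Jak1 (292 ± 36.6 and 361 ± 29.6 CPM, 0.30 ± 0.15, adjusted p = 0.149) and Stat6, the IL-4 pathway factor (0.14 ± 0.16, adjusted p = 0.536), were not called. Jak3 was called higher at low level (3.03 ± 1.25 CPM in 3W-PSCs, 3.08 ± 0.83), and 20.7% of its 3′-end windows also occur in Insl3.

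Of 29 NF-κB genes tested 17 rose and none fell, with a median of 0.98. Nfkbia (chromosome 12, 55489410 to 55492647, minus strand), the inhibitor IκBα that is itself an NF-κB target, read 159, 159, 182 and 147 CPM in mono-PSCs and 1865, 1434, 1805 and 1117 CPM in 3W-PSCs. This was a log2 fold change of 3.26 ± 0.19 (adjusted p = 2.01e-09), and the lowest 3W-PSC library lay far above the highest mono-PSC library. Other feedback genes moved the same way. The ubiquitin-editing enzyme gene Tnfaip3 read 2.11, 0.979, 0.178 and 1.09 CPM against 28, 14.1, 42.3 and 12.6 CPM (4.44 ± 0.49), the IκB-like gene Bcl3 rose by 4.01 ± 0.47 and Nfkbie by 3.02 ± 0.43. Among the subunits, Relb read 13.2, 6.27, 11.5 and 2.54 CPM against 40.2, 44.8, 31.1 and 33.6 CPM (2.17 ± 0.34, adjusted p = 0.00016) and Nfkb1 rose by 1.35 ± 0.32 (adjusted p = 0.00486). Chuk, the kinase IKKα, read 34.1, 13.7, 21.3 and 27.2 CPM against 55, 52.7, 40.5 and 33.4 CPM, where the lowest 3W-PSC library lay under the highest mono-PSC library (0.90 ± 0.24, adjusted p = 0.0108), and the call was lost with all 12 libraries in 1 fit (adjusted p = 0.0626). The apoptosis inhibitor Birc3, an NF-κB target, rose by 2.51 ± 0.47. Traf1, an adaptor of TNF receptors, had 1 count over the mono-PSC libraries and was 64.3 times higher in 3W-PSCs (95% counting interval 11.2 to 2571).

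Chemokine genes rose by large amounts. Of 14 tested in a list of 20, 12 rose and 2 fell, with a median log2 fold change of 4.51, or 4.50 with the 3 members at the floor of 3 counts in mono-PSCs set to their bounds. The other 6 had too few counts to be tested, among them Cxcl14 at 0 and Ccl20 at no more than 70 counts in any library. Ccl2 (chromosome 11, 82035571 to 82037453, plus strand), a monocyte attractant, read 41.1, 19.4, 29.3 and 19.2 CPM in mono-PSCs and 1398, 1231, 1309 and 873 CPM in 3W-PSCs. Its neighbour Ccl7 (chromosome 11, 82045712 to 82047525, plus strand), which acts on the same receptor, read 13.3, 6.07, 9.05 and 2.54 CPM against 490.4, 460.2, 451 and 335 CPM. Every 3W-PSC library was far above every mono-PSC library for both genes. The log2 fold changes were 5.46 ± 0.27 for Ccl2 (adjusted p = 2.97e-10) and 5.83 ± 0.34 for Ccl7 (adjusted p = 2.01e-09). Both Ccl2 and Ccl7 were at their lowest 3W-PSC level in replicate 4. The part of macrophage RNA in these values was not tested.

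The T cell attractants formed a further block of chemokines. Cxcl10 (chromosome 5, 92346638 to 92348889, minus strand), an interferon-induced ligand of Cxcr3, read 10, 15.3, 13.1 and 9.92 CPM in mono-PSCs and 445, 383, 269 and 337 CPM in 3W-PSCs, which gave a log2 fold change of 4.89 ± 0.22 (adjusted p = 9.1e-11). Transcripts of Cxcl9 and Cxcl11, the genes of the other Cxcr3 ligands, were close to absent from mono-PSCs. Cxcl9 had 0 counts there and 6.77, 5.32, 5.85 and 4.16 CPM in 3W-PSCs, at least 45.2-fold higher against a floor of 3 counts over the group. Cxcl11 had 1 mono-PSC count and 5.45, 2.54, 3.31 and 3.25 CPM in 3W-PSCs, a ratio of 88.4 (15.5 to 3520.3). GENCODE vM21 lists Cxcl11 as a polymorphic pseudogene, so this is a transcript level, and whether a working chemokine is made was not tested. Ccl5, which attracts T cells and monocytes, was expressed in both cultures, at 24.8, 36.6, 37.8 and 32.4 CPM and 379, 414, 365 and 346 CPM (3.51 ± 0.17, adjusted p = 2.99e-10).

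Neutrophil attractants were lower in level. Cxcl1 read 10.7, 5.68, 17.2 and 11.9 CPM in mono-PSCs and 217, 124, 92.5 and 54.3 CPM in 3W-PSCs (3.41 ± 0.37), with a wide spread among the 3W-PSC libraries and no overlap. Cxcl2 had 0 counts in mono-PSCs and 3.72, 3.12, 2.04 and 5.98 CPM in 3W-PSCs, at least 30.2-fold higher. Against this direction, Cxcl12, the constitutive fibroblast chemokine that holds Cxcr4-positive cells, read 557, 612, 407 and 459 CPM against 360.5, 358, 328 and 349 CPM and fell (-0.55 ± 0.16, adjusted p = 0.0145; without mono-PSC replicate 2 the adjusted p was 0.0510). Ccl9, a macrophage attractant, fell from 12.1 ± 3.19 to 4.6 ± 1.83 CPM (-1.40 ± 0.33). Ccl8, a further monocyte attractant, rose from 0.324 ± 0.283 to 10.8 ± 3.74 CPM (5.13 ± 0.58). An ISRE core and a κB site were each present in 33.3% of the 12 chemokine promoter windows.

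**Figure D2:**
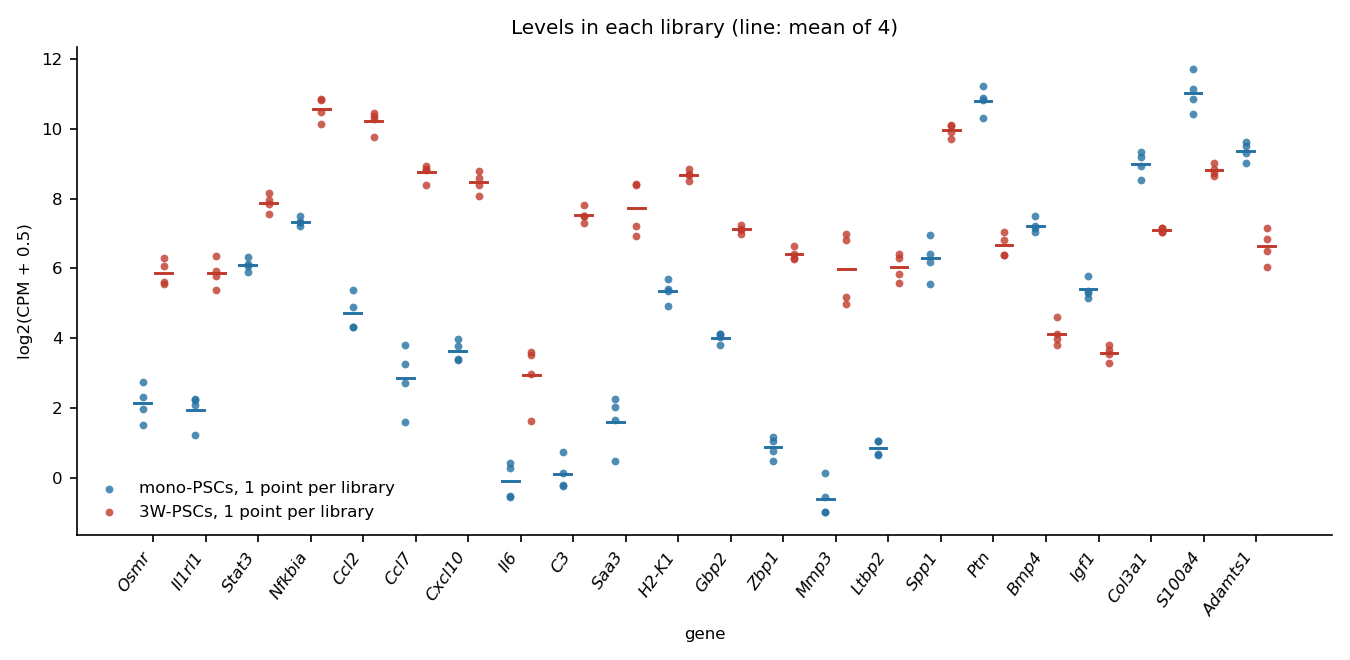
Levels of 22 genes in each of the 8 libraries as log2(CPM + 0.5), with mono-PSC and 3W-PSC libraries as separate points and a line at the mean of 4. The receptor, chemokine, complement and GTPase genes from Osmr to Spp1 lie higher in all 3W-PSC libraries, and Ptn, Bmp4, Igf1, Col3a1, S100a4 and Adamts1 lie lower in all of them.

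Secreted cytokines and growth factors moved in both directions, with 14 of 22 tested higher, 2 lower and a median of 1.39. Il6 read 0.176, 0.196, 0.71 and 0.847 CPM in mono-PSCs and 10.9, 7.4, 11.7 and 2.6 CPM in 3W-PSCs (3.94 ± 0.59, adjusted p = 8.47e-05). Lif, another ligand of Gp130 receptors, read 1.05, 0.196, 0.178 and 0 CPM against 17.8, 7.4, 8.65 and 2.86 CPM (4.71 ± 0.73, adjusted p = 0.000131). Both stayed at low levels and both were lowest in 3W-PSC replicate 4. Csf1, the growth factor of macrophages, was far more abundant, at 147, 57.2, 85.4 and 100.4 CPM in mono-PSCs and 387, 379, 491 and 322 CPM in 3W-PSCs (2.01 ± 0.23). The EGF receptor ligands Ereg and Areg rose by 2.28 ± 0.33 and 3.69 ± 0.76. Il1rn, the IL-1 receptor antagonist, had 1 mono-PSC count and 14.5, 14.9, 15 and 29.6 CPM in 3W-PSCs, a ratio of 453 (80.9 to 17909), and it was also at 19.1 ± 8.34 CPM in 2W-PSCs, where Krt18 was at 37.4 ± 10.6 CPM.

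The 2 factors that fell were abundant in mono-PSCs. Ptn (chromosome 6, 36714929 to 36810220, minus strand), the heparin-binding growth factor pleiotrophin, read 1257, 2406, 1873 and 1810.1 CPM in mono-PSCs and 83.1, 83, 112 and 131 CPM in 3W-PSCs. Its log2 fold change of -4.17 ± 0.23 (adjusted p = 1.05e-09) was one of the 10 largest falls among called genes with a mean log2 CPM above 3. Igf1, insulin-like growth factor, read 54.8, 39, 34.8 and 40 CPM against 9.16, 11.1, 12.2 and 13.4 CPM (-1.88 ± 0.21, adjusted p = 3.3e-06). Tnf, Csf2 and Csf3 had too few counts to be tested.

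Complement and acute-phase genes held some of the largest rises. C3 (chromosome 17, 57203970 to 57228136, minus strand), the central complement protein, read 0.351, 1.18, 0.355 and 0.605 CPM in mono-PSCs and 180.5, 179, 157 and 226 CPM in 3W-PSCs. This was a log2 fold change of 8.21 ± 0.28 (adjusted p = 2.94e-12), and its 2W-PSC level of 0.488 ± 0.438 CPM was no higher than that of mono-PSCs. C4b had 1 mono-PSC count and 7.17, 9.25, 3.31 and 10 CPM in 3W-PSCs, a ratio of 184 (32.7 to 7286), with 14.6% of its 3′-end windows also in C4a. The protease C1s rose from 45.6 ± 13.6 to 116 ± 4.22 CPM (1.34 ± 0.19), and Serping1, which inhibits it, by 1.42 ± 0.39. The chaperone clusterin, Clu, rose from 3.46 ± 0.898 to 52 ± 15.8 CPM, below its 2W-PSC level of 109.6 ± 46.6 CPM. C1ra, the partner protease of C1s, was not called (0.35 ± 0.17, adjusted p = 0.136). Cr1l, a membrane regulator that limits complement on mouse cells, fell (-0.98 ± 0.19). Of 11 complement genes tested 6 rose and 1 fell, and 2 fell without mono-PSC replicate 4 or without 3W-PSC replicate 1.

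All 9 acute-phase genes that could be tested rose, out of 22 listed, and 3 of the 9 were at the floor in mono-PSCs. The median was 6.20, or 5.12 with those 3 at their bounds. Saa3 (chromosome 7, 46711998 to 46715700, minus strand), serum amyloid A3, read 0.878, 4.31, 3.55 and 2.66 CPM in mono-PSCs and 343, 331, 122 and 149 CPM in 3W-PSCs (6.38 ± 0.41, adjusted p = 7.46e-09). The haptoglobin gene Hp read 0, 0.392, 0.178 and 0.484 CPM against 28.4, 31.2, 15.9 and 12.5 CPM, and the copper oxidase gene Cp 15.8, 14.3, 22 and 23.8 CPM against 129, 119, 89.8 and 101 CPM. For Saa3 and Hp, 3W-PSC replicates 1 and 2 lay above replicates 3 and 4, and the gap to mono-PSCs was larger than this spread. The iron-binding protein gene Lcn2 had 1 mono-PSC count and was 117 times higher (20.7 to 4653), and the protease inhibitor gene Serpina3n had none and was at least 34.9-fold higher. Serpina3g, of the same family, had 1 and was 287 times higher (51.2 to 11358). A C/EBP site was present in 63.2% of the 19 promoter windows of the acute-phase list, against 10.8% of all windows. These 19 windows belong to 17 genes of the list, many of which were not tested here.

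Most interferon-stimulated genes rose. Of 44 antiviral genes tested in a list of 46, 40 were called higher and 1 lower, with a median of 1.85. Zbp1 (chromosome 2, 173206612 to 173218923, minus strand), a sensor of Z-form nucleic acids, read 1.58, 1.76, 0.888 and 1.21 CPM in mono-PSCs and 76, 84.9, 77.9 and 98.9 CPM in 3W-PSCs (5.95 ± 0.24, adjusted p = 2.78e-11). The oligoadenylate synthetase genes, which activate RNase L, rose as well, with Oas3 at 0.527, 0.196, 0 and 0 CPM against 7.17, 7.17, 9.93 and 8.57 CPM and Oas2 at 1.76, 2.74, 0.71 and 0.847 CPM against 19.4, 17.1, 20.1 and 20.5 CPM. Oas1a also rose (6.18 ± 0.54), but 46.0% of its 3′-end windows occur in Oas1g. Parp14 rose from 14.4 ± 4.2 to 155 ± 20 CPM, and Mx1, an inhibitor of influenza-like viruses, by 3.46 ± 0.76. The member that fell was Ifi27, at 363, 644, 616 and 538 CPM against 286, 265, 235 and 250.3 CPM (-1.07 ± 0.18). Ifit2 was not called (39 ± 4.89 and 34.3 ± 2.07 CPM, -0.19 ± 0.17, adjusted p = 0.417). An ISRE core was present in 48.8% of the 41 antiviral promoter windows.

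All 12 interferon-inducible GTPase genes tested, of 18 listed, rose, with a median of 2.75. These enzymes attack the vacuoles of intracellular parasites. Gbp2 (chromosome 3, 142620602 to 142638008, plus strand) read 15.8, 16.8, 16.9 and 13.4 CPM in mono-PSCs and 139, 151, 136 and 126 CPM in 3W-PSCs (3.13 ± 0.16, adjusted p = 5.25e-10). Gbp3 read 9.83, 12.1, 11.4 and 20.6 CPM against 196, 157, 121 and 160.0 CPM, and Iigp1 9.83, 12.3, 14.6 and 10.6 CPM against 187, 177, 185 and 249 CPM. No 3W-PSC library came near the mono-PSC range in these genes. Gm4951, a gene of the immunity-related family, rose by 4.12 ± 0.41. The gene that the count table names Gbp5, whose Ensembl identifier belongs to Gbp2b in GENCODE vM21, had 0 counts in mono-PSCs and 12.6, 8.1, 10.7 and 8.44 CPM in 3W-PSCs, at least 81.1-fold higher. In 81.8% of the 11 GTPase promoter windows an ISRE core was present, against 8.56% of all windows, with the Gbp2 match printed above as an example.

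The interferon regulatory factors rose in 5 of 6 tested. Irf7 read 22.1, 35.3, 31.4 and 45.9 CPM in mono-PSCs and 137, 126, 163 and 179 CPM in 3W-PSCs (2.16 ± 0.20). Irf1 read 51.4, 64.6, 63.6 and 71 CPM against 159, 159, 142 and 167 CPM (1.31 ± 0.15), and Irf5 rose from 1.35 ± 0.948 to 18.8 ± 1.61 CPM. Irf9, a partner of STAT factors, and Irf2 rose least, by 0.56 ± 0.15 and 0.55 ± 0.15.

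Antigen presentation by MHC class I rose at several steps, with 15 of 21 genes tested higher, none lower and a median of 1.75. The class I heavy chain H2-K1 (chromosome 17, 33996017 to 34000347, minus strand) read 42.3, 29.6, 40.3 and 50.9 CPM in mono-PSCs and 405, 414, 360.3 and 461 CPM in 3W-PSCs (3.32 ± 0.18, adjusted p = 1.03e-09). The light chain B2m, chosen after its value was seen, was among the most abundant of these transcripts, at 1151, 933, 1212 and 1336 CPM against 3304, 3335, 4449 and 4536 CPM (1.75 ± 0.18). The immunoproteasome subunits Psmb8 and Psmb9, which cut peptides for class I, rose from 3.42 ± 1.5 to 47.1 ± 5.63 CPM and from 2.75 ± 1.55 to 25.4 ± 2.77 CPM. Nlrc5, the transactivator of class I genes, rose by 3.86 ± 0.70. H2-Q4 rose by 5.17 ± 0.55, and H2-Q7, with 0 mono-PSC counts, was at least 18.9-fold higher, although class I genes share sequence and reads may be split between them. The general chaperone Canx was not called (-0.14 ± 0.15, adjusted p = 0.522). Among 6 class II and checkpoint genes tested 3 rose, namely the costimulatory gene Cd80 (2.63 ± 0.62), the invariant chain Cd74 (1.47 ± 0.41) and Cd274, which encodes PD-L1 (2.11, 4.11, 6.75 and 5.81 CPM against 12.2, 8.56, 7.25 and 17.9 CPM, 1.27 ± 0.37). Without 3W-PSC replicate 4, the library with the highest macrophage marker sum and the highest Cd74 and Cd274, 1 of the 3 calls was left, and the adjusted p was 0.0892 for Cd74 and 0.0901 for Cd274.

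In the JAK-STAT, NF-κB, acute-phase, MHC class I, class II, GTPase and IRF lists edgeR called 0 genes lower, and DESeq2 also called 0. Without mono-PSC replicate 4 edgeR called 1 JAK-STAT gene lower. At an unadjusted p under 0.05, 1 of the 19 JAK-STAT genes was lower and 0 in the other 6 lists.

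**Figure D3:**
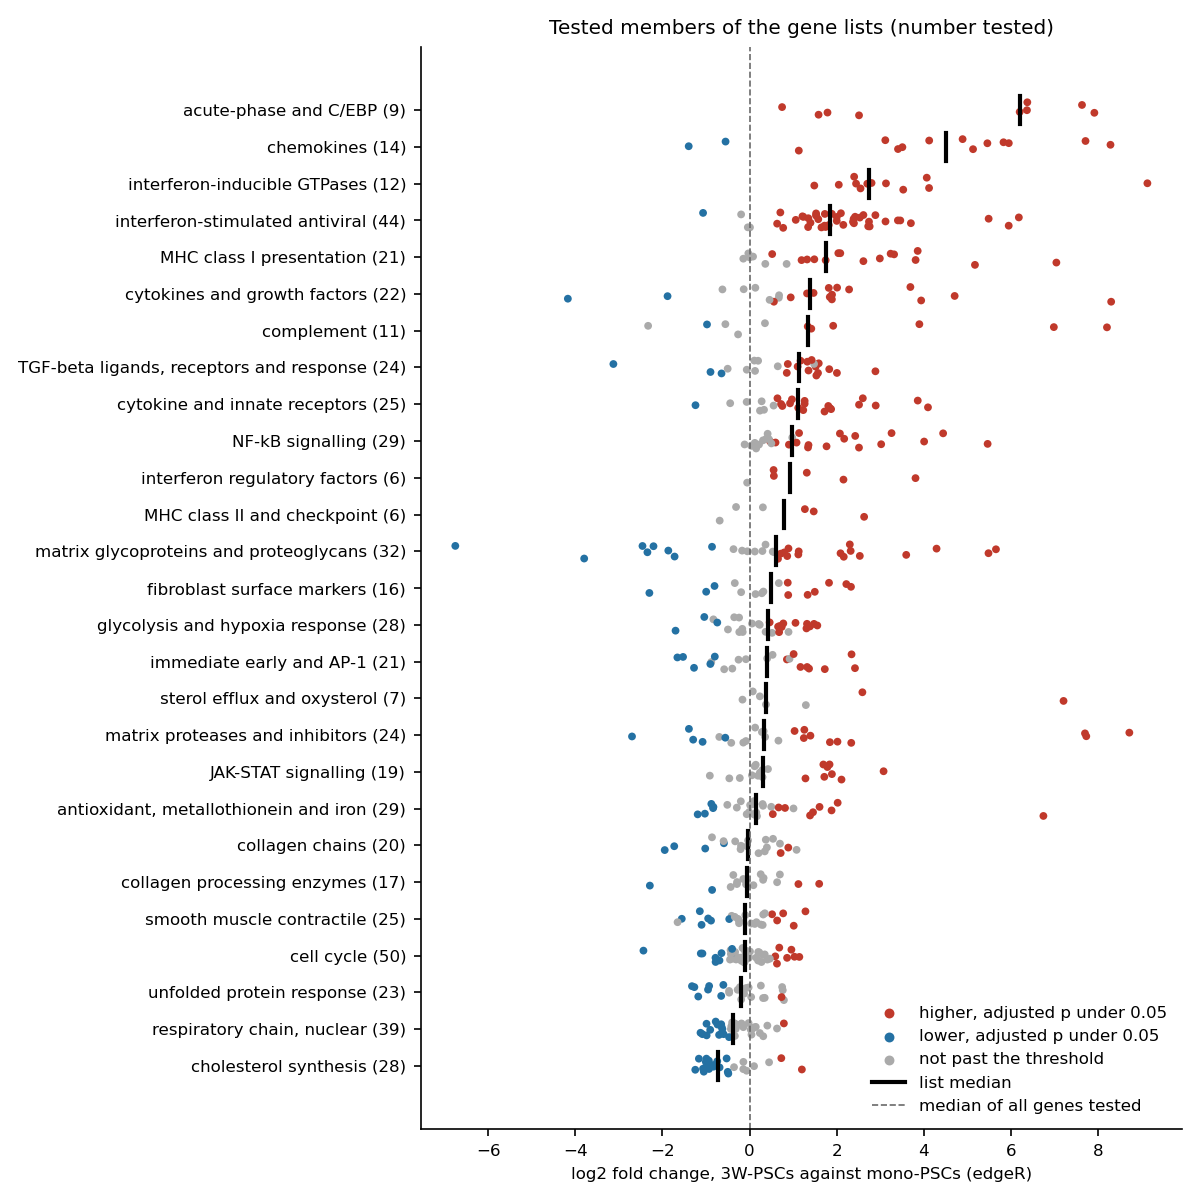
Log2 fold changes of the tested members of 27 gene lists, 1 point per gene coloured by call, with a bar at each list median and a dashed line at the median of all 11551 genes. Acute-phase, chemokine and GTPase lists lie to the right with medians of 6.20, 4.51 and 2.75, and cholesterol synthesis and respiratory chain lists lie to the left with medians of -0.72 and -0.39.

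Matrix genes did not move as a block. Of 20 collagen chains tested 4 fell, 2 rose and 14 were not called, and the median was -0.05. The lower and higher shares were both near those over all genes, so these counts do not set the collagens apart from the background. The number that rose rested on single libraries, as it was 5 without mono-PSC replicate 1, 4 without mono-PSC replicate 4, and 1 without mono-PSC replicate 2 or 3 or 3W-PSC replicate 1 or 2. Col3a1, a fibrillar collagen, read 648, 367, 493 and 585 CPM in mono-PSCs and 141, 141, 132 and 130.4 CPM in 3W-PSCs (-1.95 ± 0.18, adjusted p = 3.04e-07). Col11a1 read 75, 65.4, 62.7 and 96.7 CPM against 24.7, 27.4, 19.5 and 19.2 CPM (-1.73 ± 0.19), and the basement membrane chain Col4a5 54.4, 50.9, 74.9 and 72.2 CPM against 22.3, 29.5, 35.8 and 37.8 CPM (-1.02 ± 0.20). These 3 genes did not overlap between the cultures. The main collagen I chains were not called, with Col1a1 at 2631, 1584, 1806 and 2632 CPM against 1433, 1600.4, 2019 and 1862 CPM (-0.33 ± 0.19, adjusted p = 0.219) and Col1a2 at -0.06 ± 0.26 (adjusted p = 0.893). Col6a1 and Col4a6 were not called either (-0.03 ± 0.21 and -0.86 ± 0.38, adjusted p = 0.924 and 0.107), but Col4a6 was called lower without mono-PSC replicate 1 (-1.10, adjusted p = 0.0206). Col8a1 rose from 303 ± 43.7 to 499 ± 60.8 CPM. Collagen VI chains were called in opposite directions, Col6a3 higher (0.89 ± 0.31, adjusted p = 0.0407) and Col6a2 lower (-0.59 ± 0.19, adjusted p = 0.0303), each with an overlap between the cultures.

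Matrix glycoproteins and proteoglycans rose in 16 and fell in 8 of 32 tested. Several small leucine-rich proteoglycans, which organise collagen fibrils, fell. Ogn read 91.1, 85.2, 96.8 and 76.8 CPM in mono-PSCs and 8.77, 12.7, 22.1 and 20.3 CPM in 3W-PSCs (-2.46 ± 0.24), and Aspn 11.2, 9.99, 6.92 and 9.56 CPM against 0.664, 0.347, 1.15 and 0.52 CPM (-3.80 ± 0.43). Fmod went from 210 counts over the mono-PSC libraries to 2 over the 3W-PSC libraries, and Prelp fell (-2.21 ± 0.30). The matricellular gene Nov and the basement membrane gene Nid2 fell (-2.35 ± 0.22 and -1.87 ± 0.32). Dpt, the collagen-binding protein dermatopontin, which was named by size, read 72.3, 90.5, 82.2 and 79 CPM against 4.12, 7.87, 8.02 and 5.98 CPM (-3.64 ± 0.21).

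Other matrix genes rose strongly. Ltbp2 (chromosome 12, 84783212 to 84876532, minus strand), which binds fibrillin microfibrils, read 1.58, 1.57, 1.07 and 1.09 CPM in mono-PSCs and 85.1, 78.5, 47.3 and 56.8 CPM in 3W-PSCs (5.66 ± 0.28, adjusted p = 2.99e-10). The hyaluronan synthase Has2 read 2.46, 0.783, 1.07 and 1.09 CPM against 30.5, 31.7, 26.7 and 18.1 CPM (4.29 ± 0.34), and versican, Vcan, which binds hyaluronan, 14.7, 7.05, 15.8 and 14.9 CPM against 58.2, 65.6, 69.5 and 68.5 CPM (2.30 ± 0.22). Osteopontin, Spp1, was the most abundant of them at 72.7, 46.6, 124 and 84.8 CPM against 1089, 1100.3, 959.7 and 840.5 CPM (3.60 ± 0.24, adjusted p = 1.2e-08). Thbs2 and Postn, secreted proteins of wound matrix, rose by 2.53 ± 0.22 and 2.32 ± 0.25. Wisp2, a relative of Nov, had 3 mono-PSC counts and was 50.6 times higher (17.1 to 248). Thbs1 was not called (-0.17 ± 0.22, adjusted p = 0.603). Of the 17 tested enzymes that modify collagen, 13 were not called, 2 rose and 2 fell, each 11.8% and near the share over all genes. Among them the C-proteinase enhancer Pcolce fell from 871 ± 177 to 482 ± 77.8 CPM. The prolyl hydroxylase Leprel1 fell (-2.29 ± 0.55), and the lysyl oxidase Loxl3 and the prolyl hydroxylase subunit P4ha3 rose by 1.60 ± 0.19 and 1.12 ± 0.27. Without 3W-PSC replicate 3, 4 of these enzymes rose.

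Matrix proteases showed some of the largest rises in the comparison, with 10 of 24 genes in the protease and inhibitor list higher and 5 lower. Mmp3 (chromosome 9, 7445822 to 7455975, plus strand), the proteoglycan-degrading stromelysin-1, read 0.176, 0.588, 0 and 0 CPM in mono-PSCs and 112, 127, 31.2 and 35.7 CPM in 3W-PSCs (8.72 ± 0.69, adjusted p = 6.57e-08). Mmp13, a collagenase, read 0, 0.783, 0.178 and 0.121 CPM against 81, 101, 23.2 and 18.4 CPM (7.73 ± 0.72), and Mmp10 had 2 mono-PSC counts and was 258 times higher (71.2 to 2136). For all 3 genes, 3W-PSC replicates 1 and 2 lay well above replicates 3 and 4, and no 3W-PSC library came near the mono-PSC range. The inhibitor Timp1 rose, at 57.2, 47.4, 70.1 and 81.2 CPM against 389, 390.1, 273 and 248 CPM (2.33 ± 0.20). Other inhibitors and proteases fell. Timp3 read 1116, 1004, 1156 and 1217 CPM against 362, 424, 584 and 469 CPM (-1.29 ± 0.17), and Timp2 fell (-1.08 ± 0.17). The aggrecan-cleaving protease Adamts1 read 732, 513, 631 and 791 CPM against 90.1, 65.2, 143 and 114 CPM (-2.70 ± 0.22, adjusted p = 1.04e-07), and Adamts5 fell (-1.39 ± 0.23). The lysosomal protease Ctsd fell (-0.56 ± 0.18, adjusted p = 0.0303) and the urokinase receptor Plaur rose by 1.84 ± 0.50 (adjusted p = 0.0109).

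Contractile genes showed no common direction, with 5 of 25 tested higher, 6 lower and a median of -0.10. Acta2 (chromosome 19, 34241090 to 34255590, minus strand), smooth muscle actin, read 159, 188, 91.8 and 119 CPM in mono-PSCs and 100.3, 86.5, 124 and 111 CPM in 3W-PSCs and was not called (-0.41 ± 0.20, adjusted p = 0.138). Without mono-PSC replicate 3, the lowest of its group, Acta2 was called lower (-0.56, adjusted p = 0.0384). Tagln was not called either (11.5 ± 6.06 and 9.54 ± 2.62 CPM, -0.26 ± 0.34, adjusted p = 0.598). The myosin light chains Myl9 and Myl6 fell, with Myl9 at 49.2, 69.7, 45.6 and 43.4 CPM against 20.2, 15.7, 16.3 and 18.7 CPM (-1.56 ± 0.19) and Myl6 at -1.10 ± 0.17, and the tropomyosin Tpm2 fell (-0.95 ± 0.17). The actin crosslinker Actn1 rose, at 364, 194, 189 and 215 CPM against 560.5, 592, 664 and 535 CPM (1.28 ± 0.20), with mono-PSC replicate 1 standing above the other mono-PSC libraries, and Tagln2 rose by 1.01 ± 0.14. Smaller rises were called for Pdlim7 (0.77), Actn4 (0.63) and the non-muscle myosin Myh9 (0.52, adjusted p = 0.0493), and smaller falls for the integrin Itga1 (-1.14), Csrp1 (-0.89) and Cnn2 (-0.47).

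In the TGF-β and BMP list 14 of 24 tested genes rose and 3 fell, with a median of 1.14. The members that rose include inhibitors of these pathways. Grem1, a secreted BMP antagonist, read 78.1, 74.2, 80.8 and 67.5 CPM in mono-PSCs and 602, 676, 474 and 486 CPM in 3W-PSCs (2.89 ± 0.17, adjusted p = 2.01e-09). The inhibitory Smad7 rose by 1.59 ± 0.23, Smad6 by 1.57 ± 0.40 and the membrane inhibitor Pmepa1, a TGF-β target, from 74.6 ± 23.6 to 301 ± 52.2 CPM. Id1, a BMP target, rose by 1.83 ± 0.21, and the Smad corepressor Tgif1 by 1.53 ± 0.22. Smad2, a receptor-activated Smad, fell from 64.3 ± 6.63 to 34.7 ± 3.98 CPM (-0.90 ± 0.16), and the ligand Tgfb2 fell (-0.64 ± 0.21). Bmp4 (chromosome 14, 46383520 to 46390669, minus strand), which was named by size, read 179, 132, 147 and 141 CPM in mono-PSCs and 15.1, 13.4, 16.7 and 23.8 CPM in 3W-PSCs (-3.13 ± 0.19, adjusted p = 4.65e-09). The Wnt-binding protein Sfrp2 was also among the largest falls, at 72.7, 60.1, 36.2 and 43.7 CPM against 3.32, 6.48, 8.02 and 5.85 CPM (-3.17 ± 0.28).

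Immediate early genes were divided, with 8 of 21 tested higher and 5 lower. Fosl1, a late AP-1 subunit, read 14.4, 4.7, 15.4 and 12.8 CPM in mono-PSCs and 82.5, 62.3, 58.2 and 53.7 CPM in 3W-PSCs (2.42 ± 0.27), and Junb 196, 96, 211 and 187 CPM against 555, 438, 713 and 592 CPM (1.73 ± 0.22). Fos fell instead, at 97.8, 83.6, 63.4 and 143 CPM against 32.5, 19, 69.9 and 39.9 CPM with an overlap of the cultures (-1.28 ± 0.30, adjusted p = 0.00486), and Jund fell (-0.80 ± 0.16). AP-1 subunits therefore did not share a direction. Feedback genes of the MAP kinase pathway and stress response rose, with Dusp6 at 1.37 ± 0.28 and Ier3 at 1.32 ± 0.20, as did Klf9 (1.17 ± 0.18), while Klf2 fell (-0.90 ± 0.25, adjusted p = 0.014). Klf4 fell at 423, 446, 443 and 492 CPM against 164, 118, 134 and 159 CPM (-1.66 ± 0.15), Atf3, a stress-induced factor, fell (-1.53 ± 0.34), and Myc rose by 2.34 ± 0.52. Myc read 14.7, 1.37, 2.49 and 3.39 CPM in mono-PSCs, with replicate 1 apart from the others, and 27.6, 23.7, 47.7 and 12.7 CPM in 3W-PSCs.

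Genes of cholesterol synthesis fell together. Of 28 tested, 18 were called lower, 2 higher and 8 neither, with a median of -0.72. Sc4mol, a sterol demethylase, read 871, 1214, 1818 and 1516 CPM in mono-PSCs and 609, 619, 667 and 704 CPM in 3W-PSCs (-1.07 ± 0.20, adjusted p = 0.000613), and Cyp51, which acts on lanosterol, 636, 983, 1163 and 1033 CPM against 474, 475, 468 and 494 CPM (adjusted p = 0.000406). The mevalonate kinases Mvk and Pmvk fell (-1.05 ± 0.16 and -1.16 ± 0.16), and the last enzyme of the pathway, Dhcr7, also fell (-1.01 ± 0.30, adjusted p = 0.0174). Insig1, which holds the sterol-sensing complex in the endoplasmic reticulum, read 262, 245, 249.8 and 239 CPM against 81.8, 85.8, 169 and 85.1 CPM (-1.25 ± 0.21), with 3W-PSC replicate 3 apart from the other 3W-PSC libraries. The 2 genes that rose encode regulators, the transcription factor Srebf1 (1.20 ± 0.40, adjusted p = 0.0329) and its escort Scap (0.73 ± 0.17). Leaving out mono-PSC replicate 2 or 3 or 3W-PSC replicate 2 or 3 left 1 of these rises.

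Of 7 sterol efflux and oxysterol genes tested 2 rose. Ch25h, which makes 25-hydroxycholesterol, read 0.527, 0.196, 0 and 0.121 CPM in mono-PSCs and 52.7, 47.2, 20.5 and 10.7 CPM in 3W-PSCs (7.21 ± 0.65, adjusted p = 3.24e-07). The cholesterol exporter Abca1 read 8.95, 3.92, 5.86 and 2.42 CPM against 21.6, 40.6, 30.5 and 33.5 CPM (2.59 ± 0.33). Both were separated between the cultures, and Ch25h was high in 3W-PSC replicates 1 and 2 and lowest in replicate 4.

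**Figure D4:**
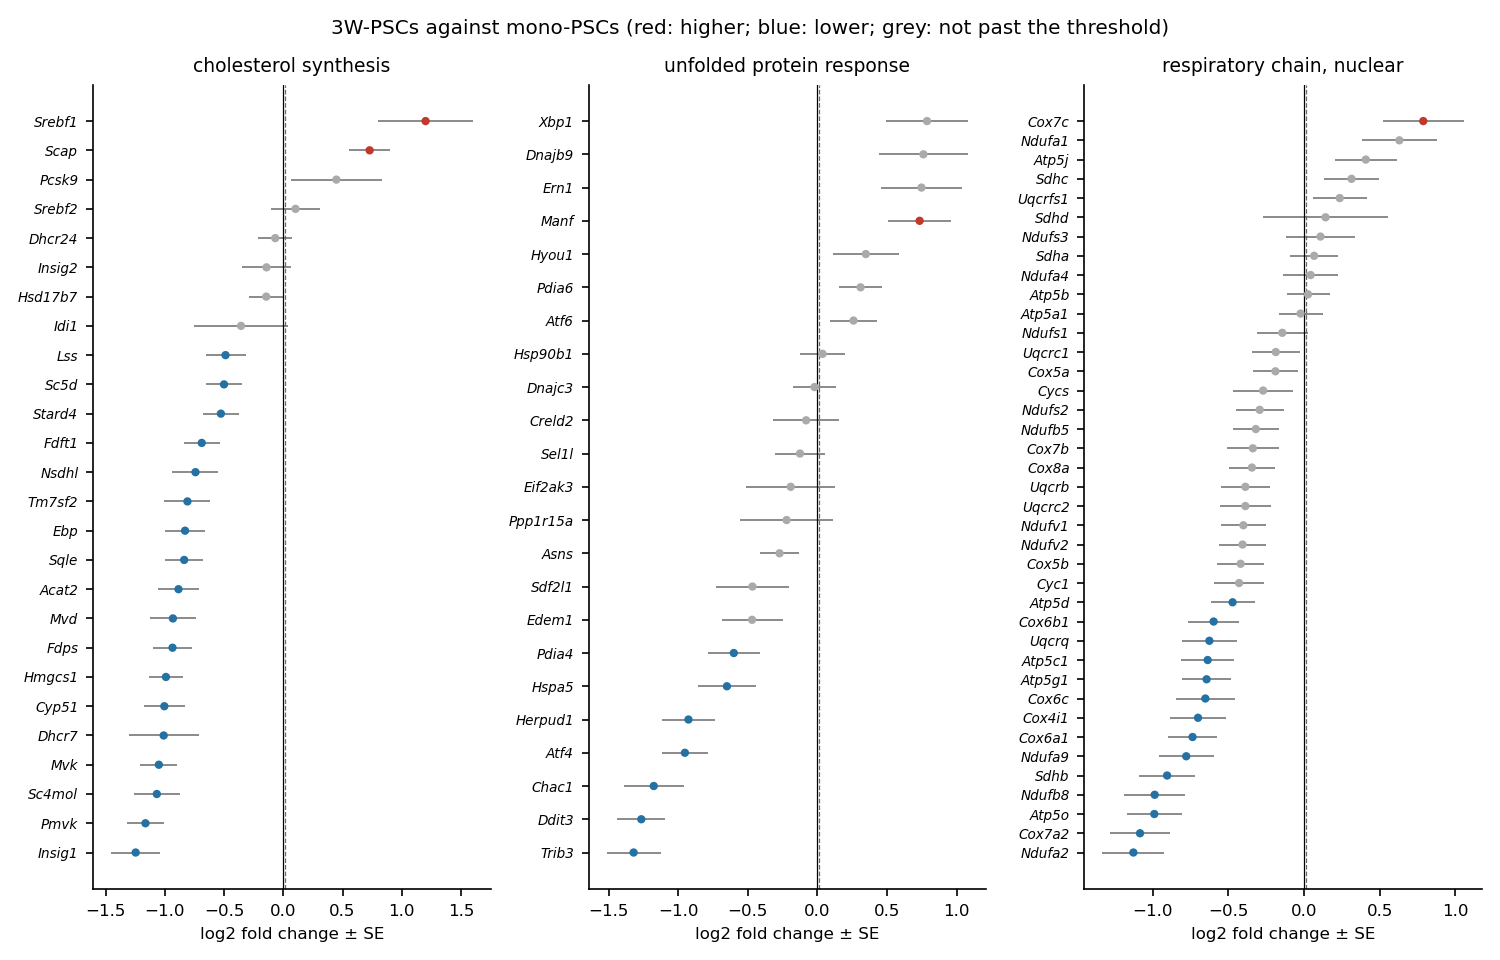
Log2 fold change of 3W-PSCs against mono-PSCs with SE for tested genes of the cholesterol synthesis, unfolded protein response and nuclear-encoded respiratory chain lists, coloured by call, with a dashed line at the median of all genes tested and 2 uncalled genes of the first list left out. Called lower are 18 of 28 genes in the first list, 7 of 23 in the second and 14 of 39 in the third.

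Nuclear-encoded respiratory chain genes fell in 14 of 39 tested and rose in 1, with a median of -0.39. Cox7a2, a cytochrome oxidase subunit, read 488, 1087, 843 and 695 CPM in mono-PSCs and 381, 347, 351 and 399 CPM in 3W-PSCs (-1.08 ± 0.20, adjusted p = 0.000659). Sdhb, of succinate dehydrogenase, fell (-0.90 ± 0.19) and so did Ndufa9, of complex I (-0.78 ± 0.18). Further falls were Ndufa2 (-1.13), Ndufb8 (-0.99) and Atp5o (-0.99, with 15.0% of its 3′-end windows shared), and the rise was Cox7c (0.79, with 24.4% shared). In this list mono-PSC replicate 1 held the lowest mono-PSC level of Cox7a2, Sdhb and Ndufa9, and without it 24 of the 39 genes were called lower. Without 3W-PSC replicate 2 the number was 9. The number that rose was 3 without mono-PSC replicate 1, and 0 without mono-PSC replicate 2, 3 or 4 or 3W-PSC replicate 1 or 2. The share of counts from mitochondrially encoded genes was higher in 3W-PSCs, as given above.

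Glycolysis and hypoxia genes rose in 12 and fell in 3 of 28 tested. Hk2, a hexokinase, read 39, 50.3, 35 and 46.2 CPM in mono-PSCs and 139.7, 132, 110.1 and 96.4 CPM in 3W-PSCs (1.48 ± 0.17, adjusted p = 5.88e-06), and the glucose transporter Slc2a1 44.9, 21.9, 36.7 and 35.7 CPM against 94, 87.1, 87.7 and 77.9 CPM (1.31 ± 0.19). Pfkfb3, which activates phosphofructokinase, rose by 1.56 ± 0.39. Adm, a peptide hormone, and Ndrg1 are also known hypoxia targets and fell, with Adm at 36.7, 64.6, 42.4 and 42 CPM against 21.5, 11.6, 9.8 and 14.5 CPM (-1.70 ± 0.25) and Ndrg1 at 192, 165, 208 and 174 CPM against 78.4, 99.1, 94.9 and 88.6 CPM (-1.04 ± 0.15). Higd1a fell (-0.74 ± 0.24, adjusted p = 0.0294). Eno1, Gapdh and Pgk1 were also called higher, but 35.7%, 39.9% and 36.6% of their 3′-end windows occur in pseudogenes or related genes, and their values are uncertain. With all 12 libraries in 1 fit, 6 genes of the list were called higher, and without mono-PSC replicate 1, 5 were called lower.

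Antioxidant, metallothionein and iron genes were mixed, with 9 of 29 tested higher and 5 lower. Within the superoxide dismutases the mitochondrial form Sod2 rose (74.1, 53.9, 73.5 and 65.8 CPM against 234, 253, 148 and 183 CPM, 1.61 ± 0.18), the secreted form Sod3 rose (12.3, 11.4, 16 and 13.8 CPM against 60.6, 64.5, 48.1 and 45.3 CPM, 2.02 ± 0.19) and the cytosolic form Sod1 fell (1028, 1656, 1502 and 1337 CPM against 741, 729.8, 683 and 867 CPM, -0.88 ± 0.17). The metal-binding protein Mt2 read 133, 185, 111 and 108 CPM against 596, 707, 339.7 and 346 CPM (1.88 ± 0.24), whereas Mt1 was not called (-0.29 ± 0.18, adjusted p = 0.238). Nqo1, a target of the factor Nrf2, fell (-1.03 ± 0.18), the glutathione peroxidase Gpx1 fell (-0.83 ± 0.16) and the peroxiredoxin Prdx1 fell (-0.84 ± 0.18), whereas the glutathione reductase Gsr rose by 1.39 ± 0.35. Slc39a14, an importer of zinc and iron, rose by 1.46 ± 0.24, and the iron exporter Slc40a1 fell (-1.19 ± 0.37). Cybb, the phagocyte oxidase subunit, is also on the macrophage marker list, had 1 mono-PSC count and was 156 times higher (27.6 to 6184). It had 32 to 73 counts in the 3W-PSC libraries, and the part of partner-cell RNA in them was not tested.

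The unfolded protein response list fell in 7 of 23 tested (30.4%) and rose in 1 (4.35%), against 13.0% and 13.4% of all genes tested. Its leading members belong to the branch of Atf4, a factor of amino acid and endoplasmic reticulum stress. Ddit3, the factor CHOP, read 704, 948, 865 and 987 CPM in mono-PSCs and 314, 299, 432 and 418 CPM in 3W-PSCs (-1.27 ± 0.17, adjusted p = 3.44e-05), and Atf4 itself 1213, 1631, 1613 and 1779 CPM against 920.3, 769.8, 685 and 860.4 CPM (-0.95 ± 0.17). Trib3 and Chac1, targets of that branch, fell (-1.32 ± 0.19 and -1.18 ± 0.21). Herpud1 fell (-0.93 ± 0.19), the chaperone Hspa5 (-0.65 ± 0.21, adjusted p = 0.0278), and Manf was the member that rose (0.73 ± 0.23, adjusted p = 0.0246). The number that rose was 3 without mono-PSC replicate 1, 2 without mono-PSC replicate 3, and 0 without mono-PSC replicate 2 or 4 or 3W-PSC replicate 3.

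The cell cycle list showed no common direction, as 34 of 50 tested genes were not called, 7 rose and 9 fell, with a median of -0.10. Mki67, the proliferation marker, read 76.4, 59.5, 39.9 and 55.7 CPM in mono-PSCs and 65.9, 65, 63.6 and 63.5 CPM in 3W-PSCs (0.15 ± 0.18, adjusted p = 0.568), and Cdk1 was not called (-0.19 ± 0.18, adjusted p = 0.457). The inhibitors of cyclin-dependent kinases went different ways. Cdkn1a, the inhibitor p21, read 577, 533, 519.8 and 562 CPM against 1126, 945, 1127 and 1086 CPM (0.96 ± 0.14), while Cdkn1b, p27, fell at 117, 133, 132 and 113 CPM against 53.8, 53, 63.4 and 64.8 CPM (-1.08 ± 0.15) and Cdkn1c (-2.44 ± 0.47). Cyclin D1, Ccnd1, rose from 256 ± 30.2 to 398 ± 40.8 CPM (0.63 ± 0.15) and cyclin E2, Ccne2, fell (-1.12 ± 0.21). The S-phase factor E2f1 (-0.78), the thymidine kinase Tk1 (-0.78) and the mitotic gene Birc5 (-0.69) fell, and Mcm4 (1.14), Cdk6 (1.03), the nucleotide reductase Rrm2 (0.86) and Bub1b (0.68, adjusted p = 0.0423) rose. Top2a was not called (-0.39 ± 0.14, adjusted p = 0.0522).

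Surface markers used to describe fibroblasts also changed, with 7 of 16 tested higher and 3 lower. Vcam1, an adhesion molecule for leukocytes, read 109, 126, 180.4 and 168 CPM in mono-PSCs and 732, 722, 631 and 649 CPM in 3W-PSCs (2.22 ± 0.18, adjusted p = 7.04e-08). Pdpn, podoplanin, read 133, 246, 242 and 172 CPM against 452, 421, 301 and 297 CPM (0.89 ± 0.21), and the hyaluronan receptor Cd44 129, 53.3, 100.1 and 86 CPM against 320.0, 372, 336 and 283 CPM (1.82 ± 0.21). Ly6a, the stem cell antigen Sca-1, rose by 1.50 ± 0.19, Pdgfra, a platelet-derived growth factor receptor, by 2.33 ± 0.23 and the fibronectin receptor subunit Itga5 by 1.33 ± 0.39 (adjusted p = 0.0176). Thy1 fell from 80.7 ± 5.44 to 40.7 ± 5.77 CPM, and the progenitor marker Cd34 (-0.80 ± 0.15). Pdgfrb, the other receptor of that family, was not called (0.67 ± 0.25, adjusted p = 0.0588). Nt5e, which encodes Cd73, had at most 8 counts in a library and was not tested. S100a4, a calcium-binding fibroblast marker, fell at 1361, 3343, 2249.6 and 1862 CPM against 423, 398, 461 and 516 CPM (-2.30 ± 0.23), and 44.8% of its 3′-end windows occur in the overlapping gene model Gm42674.

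A few of the largest changes fall outside these lists and were named by size alone. U90926 (chromosome 5, 92209893 to 92215408, minus strand), a gene of no assigned function here, had 0 mono-PSC counts and 53.1, 55.4, 22.1 and 32.6 CPM in 3W-PSCs, at least 337-fold higher. Slfn2, of the Schlafen family, had 2 mono-PSC counts and was 219.7 times higher (60.6 to 1819). Sprr2e, a cornified envelope gene, read 44.2, 62.8, 11.5 and 10.1 CPM in 3W-PSCs with 2 counts in mono-PSCs, while its relative Sprr2k fell, at 16.9, 29, 18.8 and 15.1 CPM against 0.797, 0.925, 0.764 and 1.17 CPM (-4.42 ± 0.34). Cldn18, a tight junction gene, was at 16.9 ± 4.48 CPM in 3W-PSCs and at 24.1 ± 7.83 CPM in 2W-PSCs, with 1 mono-PSC count, and Krt18 had a like order of levels. Another tight junction gene, Cldn1, fell from 15.7 ± 3.78 to 0.573 ± 0.663 CPM (-4.75 ± 0.49), and Rgs2, a regulator of G-protein signalling, from 51.7 ± 1.75 to 6.23 ± 2.18 CPM (-3.06 ± 0.24). Ppef1 (-3.19), Serpinb9b (-3.12) and Calml4 (-2.94) completed the 10 largest falls, with Cldn1, Sprr2k, Ptn, Dpt, Sfrp2, Bmp4 and Rgs2.

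The 2W-PSC libraries show which of these values also differ without MØs in the flask. 3W-PSCs and 2W-PSCs were compared directly by the same test, in which 10.7% of 11389 genes passed, and this comparison shares its 3W-PSC libraries with the main one. Of the 14 chemokine genes 10 were called higher in 3W-PSCs in this comparison and 1 lower, and of 44 antiviral genes, 43 of which could be tested here, 33 were higher and 1 lower. Ccl2 read 21.3, 8.1, 44.7 and 32.8 CPM in 2W-PSCs and was higher in 3W-PSCs, with a difference of 5.49 ± 0.46 on the log2 scale (adjusted p = 5.81e-05). The same held for Osmr (8.73, 4.42, 10 and 8.03 CPM in 2W-PSCs, 2.92 ± 0.28), Nfkbia (189.8, 76.8, 256 and 212 CPM, 3.08 ± 0.34) and H2-K1 (45.5, 20.9, 34.2 and 50.9 CPM, 3.43 ± 0.26). Some inflammatory genes stood well above mono-PSCs in 2W-PSCs already, with Il4ra at 39.7 ± 8.01 CPM and Mmp3 at 5.93 ± 1.93 CPM beside the Il1rn and Clu levels given above. Ptn was near its mono-PSC level in 2W-PSCs at 1026, 1675, 1235 and 1550.3 CPM and lower in 3W-PSCs (-3.74 ± 0.24, adjusted p = 1.62e-05).

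In the contractile list 18 of 25 genes had their highest mean in 2W-PSCs, 4 in 3W-PSCs and 3 in mono-PSCs. The same count was not taken over all genes tested, so it describes the list and has no background share. Of 24 that could be tested, 9 were called lower in 3W-PSCs against 2W-PSCs and 1 higher, where 10.7% of all genes were called in either direction. Actn1, at 318 ± 81.8 CPM in 2W-PSCs, and Tagln2, at 519.7 ± 209.9 CPM, were highest in 3W-PSCs. Acta2 read 680.0, 662, 605 and 518 CPM in 2W-PSCs, above every library of the other cultures, and was lower in 3W-PSCs (-2.55 ± 0.18, adjusted p = 2.69e-05). Tagln read 63.9, 129, 47.3 and 60.8 CPM in 2W-PSCs (-2.97 ± 0.35, adjusted p = 0.000473). Aspn also stood highest in 2W-PSCs, at 49.4, 45.1, 46.3 and 36.1 CPM, and lowest in 3W-PSCs (-6.02 ± 0.32). Other genes were not separated by the test between the co-cultures. Pmepa1 was at 294 ± 117 CPM in 2W-PSCs against 301 ± 52.2 CPM (0.03 ± 0.26, adjusted p = 0.951), and Thbs2 at 62.1 ± 13.2 and 75.8 ± 16.1 CPM (0.29 ± 0.20, adjusted p = 0.404). Spp1 and Grem1 were intermediate in 2W-PSCs, at 390.2 ± 155 and 265 ± 44.3 CPM, and higher in 3W-PSCs by 1.36 ± 0.26 and 1.08 ± 0.19. Mt2 was lowest in 2W-PSCs at 56.9, 42.7, 68.9 and 61.8 CPM, so its 3W-PSC level was 3.11 ± 0.28 above 2W-PSCs.

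**Figure D5:**
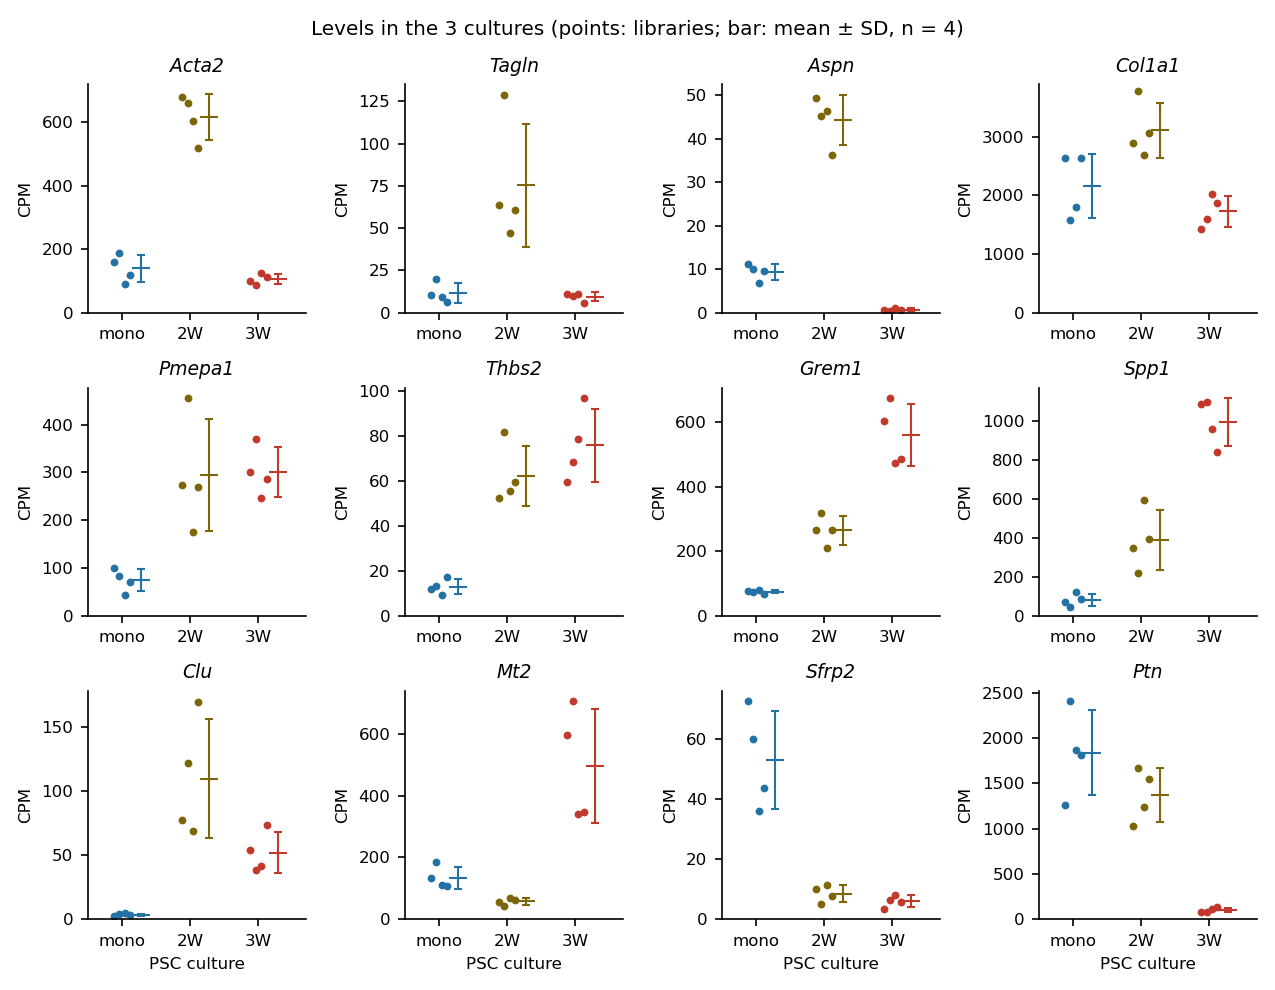
Mean CPM with SD over 4 libraries for 12 genes in mono-PSCs, 2W-PSCs and 3W-PSCs, with each library as a point. Acta2 is highest in 2W-PSCs at a mean of 616 CPM, against 139 in mono-PSCs and 105 in 3W-PSCs, while Ptn is lowest in 3W-PSCs at a mean of 102 CPM.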

How the data were processed

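PSCs were lysed after sorting and libraries were made with the QuantSeq 3′ mRNA-Seq kit. The submitters' processing notes name FastQC, STAR, featureCounts and DESeq2 and the build GRCm38, with no versions. The deposited values are whole-number read counts per Ensembl gene in 1 table of 12 libraries, which the authors did not normalise, and 0 columns of other samples were present. The strand setting and any use of molecular identifiers are not given in the sources used here, so counting intervals cover counting error only.

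Counts were filtered with filterByExpr, scaled by TMM and fitted with edgeR 4.0.16 (R 4.3.3) by the quasi-likelihood test, 3W-PSCs against mono-PSCs, with no covariates and Benjamini-Hochberg adjustment over the 11551 genes tested. 3W-PSCs against 2W-PSCs was fitted likewise for named genes. The labels give no batch. They number the 4 cultures of each kind, and as these are cultures of 1 cell line, p-values measure the spread between cultures. Groups at 0 to 3 counts were compared through a floor of 3 counts over the group or through a ratio with an exact 95% counting interval. Depth is the total count of each library. The fitting was tested on simulated data.

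Named genes were the 10 largest changes in each direction among called genes with mean log2 CPM above 3 and no overlap, up to 6 called members in each direction per list in order of size, genes the study names for these PSCs, and marker genes. The members and the 30 gene lists were chosen with earlier results of these data known. Gene positions are from GENCODE vM21 on GRCm38, where the last 500 bases of each transcript were searched in 75-base windows for sequence shared with other genes. Promoter windows are from RefSeq. The alternatives were DESeq2 1.42.0 as test and as scaling, other filters, all 12 libraries in 1 fit, a replicate block, removal of the abundant transcript Gm26924 with mitochondrial rRNA, and leaving out each of the 8 libraries. A few genes of the lists enter the counts and are not reported here by name.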

Additional observations from a re-analysis of the deposited data

Results flagged for a closer look

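For the named genes, 500 groups of 4 libraries were looked at with Dixon's 95% critical value. In 38 of them the highest or the lowest library lay apart from the other 3 of its culture by more than that value. Chance flags about 1 in 20 groups of values that vary without ties. That rate does not hold where the other 3 libraries had no count, as any count in the remaining library then passes. Many of the flags, and most of those for mono-PSC replicate 2, are of this kind. The total of 38 therefore cannot be set against that rate. The libraries involved were not spread evenly, with mono-PSC replicate 2 the highest in 12 cases, mono-PSC replicate 1 in 9 and 3W-PSC replicate 4 in 7.

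For mono-PSC replicate 2 most of these values are 1 or 2 counts in genes that the other mono-PSC libraries lacked. It read 0.392 CPM for Sprr2e and Mmp10, and 0.196 CPM for Il1rn, Cldn18, Traf1, Cxcl11, C4b, Serpina3g, Cybb, Krt8 and Tspan8, with 0 in the other 3 libraries. It was also highest for Jak3 at 1.37 CPM, and lowest for Vcan at 7.05 CPM and for Klf2 at 194.9 CPM. Mono-PSC replicate 4 read 0.121 CPM for Lcn2 and 2.78 CPM for Bcl3. None of these values came near the 3W-PSC range of the same gene for the chemokine, complement and protease genes.

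Mono-PSC replicate 1, which also lay apart on the first principal component, was highest for Actn1 (364 CPM), Mcm4 (241 CPM), Actn4 (224 CPM), Postn (36.3 CPM), Myc (14.7 CPM), Smad6 (7.55 CPM), Birc3 (5.09 CPM), Krt19 (1.23 CPM) and Csf1r (0.351 CPM). For Actn1, Mcm4, Actn4, Postn, Myc, Smad6 and Birc3 it moved towards the 3W-PSC levels. Mono-PSC replicate 3 was highest for Nqo1 (80.1 CPM) and Mx1 (1.24 CPM) and lowest for Myh9 (267 CPM).

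In 3W-PSCs, replicate 4 was highest for Ctsd (535 CPM), Iigp1 (249 CPM), C1ra (104 CPM), Il1rn (29.6 CPM), Leprel1 (4.29 CPM), Cldn1 (1.56 CPM) and Fmod (0.260 CPM, 2 counts). Its macrophage marker sum of 121.2 CPM was also the highest, and the part of that RNA in these values was not tested. Replicate 3 was highest for Insig1 (169 CPM), replicate 2 lowest for Oas1a (10.9 CPM) and replicate 1 lowest for Pfkfb3 (3.45 CPM).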

How the results depend on the processing

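The count of 3054 genes called was 3092 with DESeq2 size factors, 3572 with no filter, 2660 with at least 10 counts in every library, 2063 with all 12 libraries in 1 fit, 3416 with DESeq2's own test and 3053 without Gm26924 and mitochondrial rRNA. Leaving out a library gave 2228 (without 3W-PSC replicate 2) to 4266 (without mono-PSC replicate 1). In each of these settings every call that could be tested kept its direction. The filter of at least 10 counts, which removes genes near 0 in mono-PSCs, left 601 genes higher with a log2 fold change above 1 in place of 907, and the 12-library fit left 985 lower in place of 1504, for which the cause was not tested. Of 250 named genes 231 were called, and 199 of these were called in every setting that tested them. Calls lost in 4 or more settings were Bub1b, Col6a2, Col6a3, Cox7c, Ctsd, Dhcr7, Higd1a, Hspa5, Itga1, Lifr, Manf, Myh9, Pgk1, Srebf1 and Tgfb2. Called genes did not change sign, and 5 uncalled ones did when 1 library was left out, namely Col1a2 (-0.29 to 0.27), Col6a1 (-0.21 to 0.10), Thbs1 (-0.38 to 0.057), Tagln (-0.49 to 0.14) and Lyz2 (-0.036 to 1.70). Deviations of same-numbered libraries correlated at 0.02 to 0.11 over genes, and those of differently numbered libraries at -0.13 to 0.06. With 4 libraries per culture these values cannot decide whether the replicate numbers pair the cultures. A fit with the replicate number as a block called 3092 genes, 2870 of them also called without it, and gave Col1a2 0.073. Genes near 0 in mono-PSCs limit what depth can show, since their fold changes rest on a floor of 3 counts.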
